A study of Homo sapiens with 27 samples.

Results

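The 34 genes described here encode chaperones, folding enzymes, degradation factors, translocation factors, coat proteins and stress sensors of the endoplasmic reticulum (ER). They were chosen by symbol from knowledge of the unfolded protein response, by a rule that uses no measured value. The choice was made with earlier results of these data known. All 34 were found among the 20453 genes of both deposited count tables. All 34 passed the filter on low counts in RNA-seq and in ribosome footprints, so none was dropped. THP-1 is a line of human monocytic leukaemia cells, and all cells had first been made macrophage-like with the phorbol ester PMA at 10 ng/ml for 24 h. The cells then received, for 3 h, LPS+Dex (100 ng/ml lipopolysaccharide with 1 µM dexamethasone), LPS (100 ng/ml lipopolysaccharide alone) or vehicle (ethanol in PBS). Lipopolysaccharide is a bacterial wall component sensed by Toll-like receptor 4, and dexamethasone is a synthetic glucocorticoid. Each treatment had 5 libraries of ribosome footprints, the mRNA pieces that ribosomes shield from nuclease, and 4 libraries of RNA-seq, and the RNA came from the same cells as the footprints per the labels' protocols. A single leukaemia line limits these groups as a model of macrophages, and the labels do not say whether the numbered replicates were grown apart. The p-values therefore speak of the spread among these libraries, which may be technical.

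Secreted and membrane proteins enter the ER through the SEC61 channel, fold there with chaperones and disulphide-forming enzymes, and leave in COPII vesicles, while misfolded chains are pushed back to the cytosol and destroyed (ER-associated degradation). When unfolded chains pile up, the sensors IRE1 (gene ERN1), ATF6 and PERK start the unfolded protein response. IRE1 splices XBP1 mRNA into a form that encodes an active transcription factor, ATF6 is cut and moves to the nucleus, and both raise chaperone and degradation genes. Macrophages use this system as they begin to secrete cytokines, and Toll-like receptor signals are known to act on the IRE1 and XBP1 arm. Gene counts of the kind deposited do not separate spliced from unspliced XBP1.

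Depth was 19 to 21.7 M counts in LPS+Dex, 20.9 to 24.9 M in LPS and 21.8 to 30.7 M in vehicle for RNA-seq, and 11.5 to 24.4 M, 20.8 to 26.1 M and 15.4 to 24.3 M for footprints in the same order of treatments. Of 10 macrophage markers all 10 were detected, and their summed RNA-seq level was 3162 to 3210 CPM (counts of the gene per 1 M counts of the library) in LPS+Dex, 3068 to 3344 CPM in LPS and 4285 to 4686 CPM in vehicle. The largest macrophage marker medians over the RNA-seq libraries were 890 CPM for SPI1, 834 for CSF1R, 597 for CD68 and 415 for TYROBP. CD14, LYZ and CD4 were low, at medians of 9.48, 12.4 and 21.5 CPM. The lists for T cells, B cells, epithelial cells and erythroid cells summed to at most 1.36 CPM in any RNA-seq library. HBB, HBA1 and EPCAM were at 0 in all RNA-seq libraries. The 3 fibroblast markers summed to 21.7 to 25.9 CPM in LPS+Dex, 7.42 to 10.4 CPM in LPS and 6.73 to 9.29 CPM in vehicle, nearly all of it COL1A1. The part of these lists in the results was not tested.

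One footprint library of each treatment, replicate 4, stood apart from the other 4 and was high for nearly all of these genes. Replicate 4 was the highest library for 33 of 34 members in LPS+Dex, 32 in LPS and 32 in vehicle, whereas it was the highest for 37, 35.7 and 36.5% of all genes tested. The median member lay 1.36 (LPS+Dex), 1.16 (LPS) and 0.75 (vehicle) above the other replicates on the log2 scale, against medians of -0.02, -0.02 and -0.02 over all genes. The excess passed 1 on the log2 scale for 25, 22 and 6 members, and for 11.2, 8.56 and 5.2% of all genes. BiP (HSPA5), the main Hsp70 of the ER, shows its size, at 6812 CPM in replicate 4 of LPS+Dex, 5762 CPM in that of LPS and 3955 CPM in that of vehicle, when the other libraries held 2011 to 2218, 2059 to 2253 and 2106 to 2387 CPM. SEC61B, a small subunit of the SEC61 channel, went the other way and was lowest in replicate 4 of every treatment, at 109.6, 112 and 102 CPM against 135 to 153, 153 to 177 and 132 to 136 CPM elsewhere. HERPUD1, XBP1, SEC24D and SEC23B were among the least raised. The macrophage marker sum was also highest in replicate 4, at 13490.3 CPM in LPS+Dex, 12157 CPM in LPS and 12209 CPM in vehicle, against medians of 5074, 4967 and 6324 CPM over all 5 libraries. For the 127 other ER genes described further below the excess was not computed, so it is not shown to be particular to the members. In RNA-seq no member of any replicate 4 was raised by more than 1. Since the excess was smaller in vehicle, footprint counts, and the footprint changes of the main members, are given below with all libraries and also without the 3 libraries numbered 4, a choice that the labels do not call for.

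**Figure D1:**
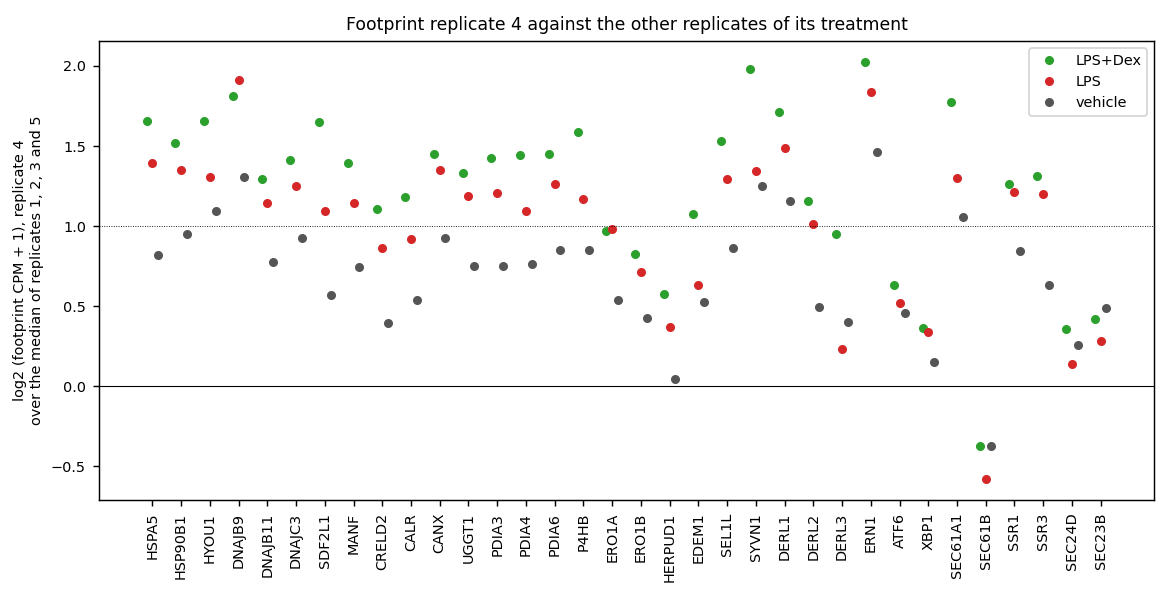
Footprint level of each member in replicate 4 over the median of the other 4 replicates of the same treatment, on the log2 scale of CPM + 1 (vertical axis), for LPS+Dex, LPS and vehicle; the dotted line marks 1. The points lie above 0 for nearly all genes, with the vehicle points lowest for most, and SEC61B lies below 0 in all 3 treatments.

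The promoters of several members hold the sequences to which the unfolded protein response is known to bind. RefSeq promoter windows (GRCh38.p14, 250 bases before to 50 after each start) were found for 30 of the 34 members, and not for DERL1, DERL3, PDIA3 and SEC24D. The ER stress response element (ERSE), CCAAT and CCACG with 9 bases between them, searched on both strands, was found in 8 of the 30 (26.7%), namely CALR, CANX, CRELD2, ERO1B, HSP90B1, HSPA5, PDIA6 and XBP1. Of 27303 genes with a window 25 held it (0.0916%), and of 111 other ER genes none did. ERSE-II, ATTGG and CCACG with 1 base between them on both strands, was found in HERPUD1, HYOU1 and SDF2L1 (10%), against 0.0696% of all genes. The core TGACGTGG on both strands was found in HYOU1, where it overlaps an ERSE-II, and in SSR3 (6.67%), against 0.927% of all genes and 9.91% of the other ER genes. These elements were defined on promoters such as those of HSPA5 and HERPUD1, so their presence here is not independent of how the members were chosen. The stretches below show the ERSE in HSPA5, in a pair of genes that rose with LPS in RNA-seq (XBP1 and ERO1B) and in a pair that fell (CALR and CRELD2), and ERSE-II in HERPUD1 and SDF2L1, which both fell; capitals mark the element, and each stretch lies before every RefSeq start of its gene.
HSPA5 (ERSE, chr9:125241371-125241429, minus strand): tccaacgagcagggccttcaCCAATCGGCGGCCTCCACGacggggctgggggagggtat
XBP1 (ERSE, chr22:28800583-28800641, minus strand): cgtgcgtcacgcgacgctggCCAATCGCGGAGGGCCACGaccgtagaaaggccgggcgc
ERO1B (ERSE on the opposite strand, chr1:236282163-236282208, minus strand): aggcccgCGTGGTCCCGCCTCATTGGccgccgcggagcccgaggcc
CALR (ERSE on the opposite strand, chr19:12938364-12938422, plus strand): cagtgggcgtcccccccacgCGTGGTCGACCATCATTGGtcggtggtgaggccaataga
CRELD2 (ERSE on the opposite strand, chr22:49918534-49918592, plus strand): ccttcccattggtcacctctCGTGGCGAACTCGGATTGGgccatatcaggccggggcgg
HERPUD1 (ERSE-II, chr16:56932005-56932055, plus strand): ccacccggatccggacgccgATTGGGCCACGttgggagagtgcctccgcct
SDF2L1 (ERSE-II on the opposite strand, chr22:21642094-21642144, plus strand): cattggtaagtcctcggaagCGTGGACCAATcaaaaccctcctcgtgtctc

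With LPS, the 34 genes did not move as a block. In RNA-seq 20 of 34 passed the edgeR quasi-likelihood test at an adjusted p under 0.05, 10 higher and 10 lower than in vehicle, beside 62.2% of all genes tested (28.6% higher and 33.6% lower). The share of members is 58.8%, near that background, and their median log2 fold change of 0.02 lay beside -0.05 over all genes. The libraries of LPS and vehicle did not overlap for 17 of 34 members, beside 52.8% of all genes. In footprints from all libraries 6 of 34 passed, 5 higher and 1 lower, beside 52.6% of all genes (25.4% higher, 27.2% lower), and the median was 0.27 beside -0.04. With the replicate number as a block 25 passed (18 higher, 7 lower; 67.1% of all genes), and without the libraries numbered 4 also 25 (16 higher, 9 lower; 67.5% of all genes, member median 0.14). Without those libraries 18 of the 20 genes that passed in RNA-seq passed in footprints with the same sign, the exceptions being HSP90B1 and DERL3. With all libraries 17 of the 20 shared the sign and 6 passed. How often the assays agreed over all genes was not computed. Library scaling makes each change relative to the average gene, and in such bulk samples fewer cells of a type and less RNA per cell cannot be told apart.

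**Figure D2:**
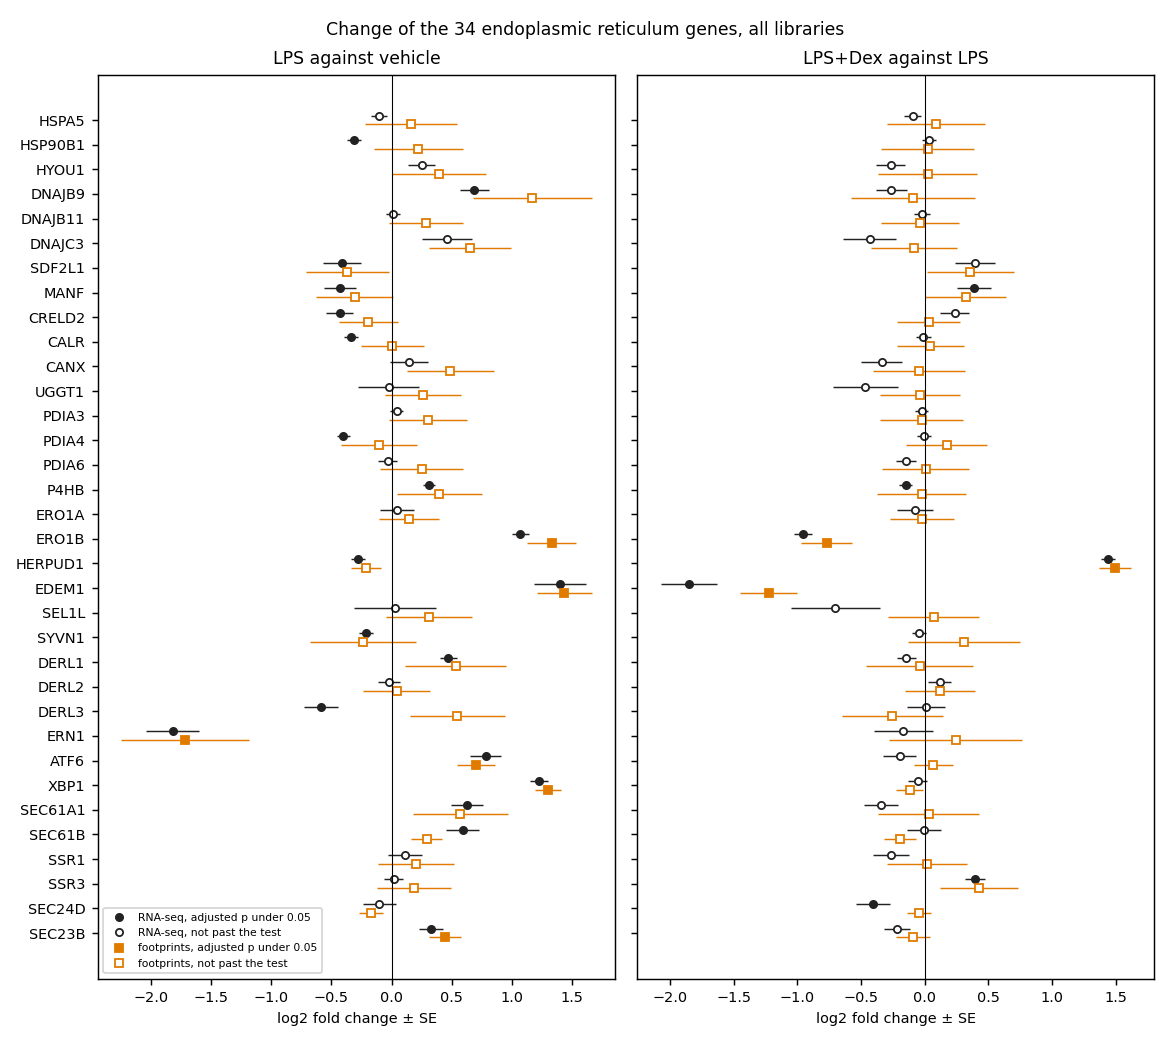
Log2 fold change ± SE (horizontal axis) of the 34 members, in RNA-seq (circles) and in footprints from all libraries (squares), for LPS against vehicle (left) and LPS+Dex against LPS (right); filled symbols have an adjusted p under 0.05 in edgeR. EDEM1, ERO1B and XBP1 lie farthest right and ERN1 farthest left with LPS, and HERPUD1, EDEM1 and ERO1B stand out when dexamethasone was added.

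With LPS, XBP1 and ATF6 rose and ERN1 fell among the sensors and their transcription factor. XBP1, the transcription factor whose mRNA is spliced by IRE1, was at 378, 411, 394 and 402 CPM in the RNA-seq libraries of LPS, against 191, 176, 163 and 148 CPM in vehicle. Its footprints were at 401, 368, 388, 479 and 366 CPM in LPS, against 168, 155, 168, 179 and 140.04 CPM in vehicle. No library of LPS overlapped vehicle in either assay, and XBP1 rose in RNA-seq (log2 fold change 1.23 ± 0.07, adjusted p = 5.86e-09) and in footprints (1.3 ± 0.11, adjusted p = 1.02e-07; without the libraries numbered 4 1.264 ± 0.07, adjusted p = 1.15e-13). ATF6, the sensor that is cut to yield a transcription factor, was at 154, 125, 169.8 and 164 CPM in RNA-seq with LPS, against 82.4, 69.2, 109 and 94.9 CPM in vehicle. In footprints ATF6 was at 249.99, 259.7, 276, 366 and 239 CPM with LPS, against 157, 161, 164, 219 and 153 CPM in vehicle. It rose in both assays without overlap between the groups, by 0.79 ± 0.13, adjusted p = 1.17e-04 in RNA-seq and by 0.70 ± 0.16, adjusted p = 0.00139 in footprints (without the libraries numbered 4 0.68 ± 0.06, adjusted p = 4.10e-10).

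ERN1, which encodes the IRE1 sensor itself, moved the opposite way to its substrate XBP1. In RNA-seq ERN1 was at 8.95, 7.28, 11 and 9.48 CPM with LPS, against 21.2, 24.4, 46.3 and 37.8 CPM in vehicle. Its footprints were at 23.9, 25.5, 23.1, 87.4 and 23.6 CPM with LPS, against 98.9, 91.6, 81.2, 245 and 84.8 CPM in vehicle. The vehicle libraries spread widely in RNA-seq yet all lay above every LPS library, while in footprints replicate 4 of LPS fell inside the vehicle range. ERN1 fell in RNA-seq (log2 fold change -1.82 ± 0.22, adjusted p = 7.76e-06) and in footprints (-1.72 ± 0.53, adjusted p = 0.0133; without the libraries numbered 4 -1.9 ± 0.08, adjusted p = 8.54e-16). DESeq2 gave no adjusted p for the footprints of ERN1 in any comparison. In GRCh38.p14 the RefSeq genes lie at chr22:28794560-28800569 (XBP1), chr1:161766320-161964070 (ATF6) and chr17:64039142-64130144 (ERN1).

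Among 9 lumenal chaperones and cofactors, 1 rose and 4 fell in RNA-seq with LPS. DNAJB9, an ER J-domain protein that represses IRE1, averaged 49.97 ± 8.603 CPM with LPS and 30.96 ± 3.26 CPM in vehicle (SD, n = 4 each), a rise of 0.69 ± 0.12, adjusted p = 2.31e-04 on the log2 scale. The genes that fell were HSP90B1 (GRP94, the Hsp90 of the ER; -0.31 ± 0.06, adjusted p = 2.56e-04), MANF (a secreted BiP cofactor; -0.43 ± 0.13, adjusted p = 0.0116), CRELD2 (an ER protein linked to folding; -0.43 ± 0.11, adjusted p = 0.00427) and SDF2L1 (a partner of the BiP and DNAJB11 cycle; -0.41 ± 0.16, adjusted p = 0.0341). Their levels were 1244 ± 37.97 CPM with LPS and 1544 ± 83.97 CPM in vehicle for HSP90B1. For MANF they were 152 ± 20.7 CPM with LPS and 205 ± 43.4 CPM in vehicle. The groups did not overlap for DNAJB9 and HSP90B1 but overlapped for MANF, CRELD2 and SDF2L1. HSPA5 itself was at 1228, 1172, 1191 and 1189 CPM with LPS, against 1399.9, 1157, 1339 and 1245 CPM in vehicle, and did not pass (-0.10 ± 0.07, adjusted p = 0.191). HYOU1 (a large Hsp70 that exchanges BiP's nucleotide), DNAJB11 and DNAJC3 (J-domain cochaperones) did not pass in RNA-seq either, at 0.25 ± 0.11, adjusted p = 0.0651, 0.01 ± 0.06, adjusted p = 0.874 and 0.46 ± 0.21, adjusted p = 0.07.

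No lumenal chaperone passed in footprints from all libraries with LPS, where DNAJB9 gave 1.17 ± 0.49, adjusted p = 0.0587. With the replicate block DNAJB9 rose by 1.04 ± 0.09, adjusted p = 4.04e-08, HYOU1 by 0.35 ± 0.08, adjusted p = 7.31e-04, DNAJC3 by 0.60 ± 0.08, adjusted p = 3.64e-06 and DNAJB11 by 0.23 ± 0.07, adjusted p = 0.0109. In the same fit MANF fell by 0.36 ± 0.09, adjusted p = 0.00172, SDF2L1 by 0.44 ± 0.14, adjusted p = 0.0092 and CRELD2 by 0.24 ± 0.10, adjusted p = 0.0445. Without the libraries numbered 4 the same 4 genes rose and the same 3 fell, with DNAJB9 at 0.93 ± 0.07, adjusted p = 1.85e-10. HSPA5 gave 0.06 ± 0.10, adjusted p = 0.611 with the block and -0.05 ± 0.05, adjusted p = 0.398 without the libraries numbered 4, so it did not pass in any of these fits.

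In the lectin cycle, which holds glycoproteins until they are folded, CALR (calreticulin) fell in RNA-seq to 1466 ± 24.01 CPM with LPS, against 1856 ± 123 CPM in vehicle (SD, n = 4 each; -0.34 ± 0.06, adjusted p = 1.58e-04). CANX (calnexin, its membrane-bound relative) and UGGT1 (the folding sensor that re-glucosylates clients) did not pass, at 0.15 ± 0.16, adjusted p = 0.453 and -0.02 ± 0.25, adjusted p = 0.937. In footprints the value for CALR was 0.01 ± 0.26, adjusted p = 0.988 with all libraries and -0.11 ± 0.05, adjusted p = 0.0361 without those numbered 4, a fall that the block did not call (-0.04 ± 0.08, adjusted p = 0.702). CANX rose in footprints by 0.42 ± 0.08, adjusted p = 1.29e-04 with the block and by 0.34 ± 0.06, adjusted p = 1.27e-05 without the libraries numbered 4.

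The disulphide-forming enzymes split. ERO1B, an oxidase that recharges protein disulphide isomerases, was at 87.1, 75.9, 83.5 and 88.6 CPM in RNA-seq with LPS, against 37.5, 40.8, 41.7 and 39.4 CPM in vehicle. Its footprints were at 46.6, 51.5, 58.6, 83.7 and 49.8 CPM with LPS, against 20.5, 22.04, 21.99, 29.4 and 21.3 CPM in vehicle. All LPS libraries lay above all vehicle libraries, and ERO1B rose by 1.07 ± 0.07, adjusted p = 1.16e-08 in RNA-seq and by 1.33 ± 0.20, adjusted p = 5.71e-05 in footprints (without the libraries numbered 4 1.259 ± 0.08, adjusted p = 3.51e-12). Its paralog ERO1A was at 33.1, 23.4, 32.3 and 32.6 CPM with LPS, against 29.3, 24.2, 33.1 and 31.2 CPM in vehicle, and gave 0.04 ± 0.14, adjusted p = 0.805 in RNA-seq. P4HB (the founding disulphide isomerase) rose by 0.31 ± 0.05, adjusted p = 1.36e-04 and PDIA4 (a larger relative) fell, with -0.40 ± 0.06, adjusted p = 3.17e-05, both without overlap between the groups. PDIA3 (the isomerase that works with calnexin and calreticulin) and PDIA6 gave 0.04 ± 0.05, adjusted p = 0.513 and -0.03 ± 0.08, adjusted p = 0.752. In footprints P4HB gave 0.40 ± 0.35, adjusted p = 0.368 and PDIA4 -0.11 ± 0.32, adjusted p = 0.805 with all libraries, and both passed without the libraries numbered 4 (0.27 ± 0.05, adjusted p = 5.43e-05 and -0.23 ± 0.05, adjusted p = 7.83e-04). The block called P4HB (0.34 ± 0.09, adjusted p = 0.00409) but not PDIA4 (-0.16 ± 0.09, adjusted p = 0.119). How reads with several matches were counted is not given in the sources used here. Members with processed pseudogenes, such as PDIA3 and HSP90B1, are therefore less certain.

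In the degradation group 2 of 7 rose and 3 fell in RNA-seq with LPS. EDEM1, a lectin that hands misfolded glycoproteins to degradation, was at 117, 74.9, 136 and 114 CPM in RNA-seq with LPS, against 29.2, 33.6, 59.3 and 44.5 CPM in vehicle. Its footprints were at 98.3, 101, 93.5, 155 and 109 CPM with LPS, against 40.6, 35.6, 38.8, 54.1 and 35.9 CPM in vehicle. The groups did not overlap in either assay, and EDEM1 had the largest rise of the 34, 1.41 ± 0.22, adjusted p = 6.24e-05 in RNA-seq and 1.44 ± 0.23, adjusted p = 7.98e-05 in footprints (without the libraries numbered 4 1.4 ± 0.07, adjusted p = 3.71e-14). DERL1, a channel component of the degradation complex, rose by 0.47 ± 0.07, adjusted p = 6.68e-05 in RNA-seq. Its relative DERL3 fell (-0.58 ± 0.14, adjusted p = 0.00232) at the lowest level of the members, 2.92 ± 0.222 CPM with LPS and 4.39 ± 0.6202 CPM in vehicle (SD, n = 4 each). SYVN1 (HRD1, the ubiquitin ligase of the complex) and HERPUD1 (a ubiquitin-like scaffold of it) fell by less, with -0.21 ± 0.06, adjusted p = 0.00492 and -0.28 ± 0.06, adjusted p = 5.59e-04. DERL2 and SEL1L (the adaptor of HRD1) did not pass, at -0.02 ± 0.09, adjusted p = 0.846 and 0.03 ± 0.34, adjusted p = 0.946. In RNA-seq the SD was largest relative to the mean for SEL1L in vehicle, at 37.7, 30.2, 94.3 and 65.9 CPM. In footprints DERL1 rose with the block (0.47 ± 0.08, adjusted p = 9.66e-05) and SYVN1 and HERPUD1 fell (-0.26 ± 0.10, adjusted p = 0.0321 and -0.23 ± 0.08, adjusted p = 0.0221), while none of the 3 passed with all libraries and no block. Without the libraries numbered 4 they passed in the same directions, with DERL1 at 0.40 ± 0.07, adjusted p = 2.37e-05, SYVN1 at -0.30 ± 0.07, adjusted p = 7.21e-04 and HERPUD1 at -0.29 ± 0.06, adjusted p = 1.75e-04.

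At the entry to the ER, SEC61A1 (the pore of the channel) rose by 0.63 ± 0.13, adjusted p = 9.84e-04 in RNA-seq with LPS and SEC61B by 0.59 ± 0.14, adjusted p = 0.00173, both without overlap. SSR1 and SSR3, subunits of the translocon-associated protein complex, gave 0.11 ± 0.14, adjusted p = 0.513 and 0.02 ± 0.08, adjusted p = 0.855. The footprints of SEC61A1 and SEC61B, at 0.57 ± 0.40, adjusted p = 0.247 and 0.29 ± 0.13, adjusted p = 0.0644, passed with the block (0.53 ± 0.09, adjusted p = 7.05e-05 and 0.28 ± 0.06, adjusted p = 3.85e-04) and without the libraries numbered 4 (0.48 ± 0.05, adjusted p = 1.84e-08 and 0.31 ± 0.06, adjusted p = 8.19e-05). At the exit, SEC23B of the inner COPII coat rose in RNA-seq (0.33 ± 0.10, adjusted p = 0.0118) and footprints (0.45 ± 0.13, adjusted p = 0.011; without the libraries numbered 4 0.48 ± 0.07, adjusted p = 6.20e-06). SEC24D, its cargo-binding partner, gave -0.10 ± 0.14, adjusted p = 0.535 in RNA-seq and -0.17 ± 0.10, adjusted p = 0.155 in footprints, and fell in footprints with the block (-0.17 ± 0.05, adjusted p = 0.0107) and without the libraries numbered 4 (-0.16 ± 0.06, adjusted p = 0.0286).

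**Figure D3:**
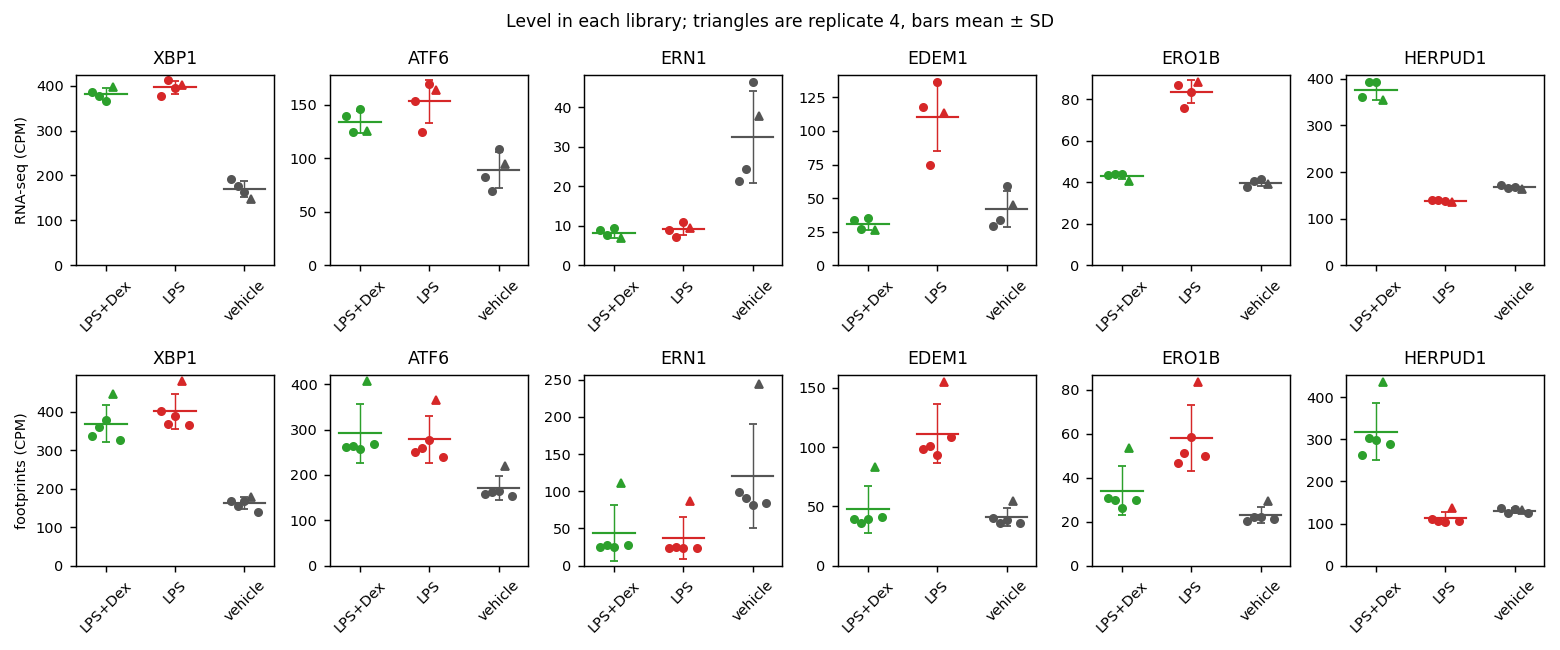
CPM of 6 members in each library (vertical axes from 0) for LPS+Dex, LPS and vehicle, RNA-seq above and footprints below; triangles are replicate 4, horizontal bars the mean and whiskers the SD (n = 4 in RNA-seq, 5 in footprints). XBP1 and ATF6 are high in both LPS+Dex and LPS and ERN1 is low in both, EDEM1 and ERO1B have their highest means in LPS, and HERPUD1 has its highest in LPS+Dex.

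When dexamethasone was added to LPS, a smaller set changed, and 3 genes had the largest changes in RNA-seq. In RNA-seq 7 of 34 members passed against LPS, 3 higher and 4 lower, beside 30.9% of all genes (15.5% higher, 15.4% lower), with a member median of -0.12 beside 0.01. The groups did not overlap for 7 of 34 members, beside 34.2% of all genes. In footprints 3 of 34 passed, 1 higher and 2 lower, beside 17.1% of all genes (9.08% higher, 7.99% lower), and 6 (3 higher, 3 lower; 30.9% of all genes) with the replicate block. Without the libraries numbered 4 there were 8 (3 higher, 5 lower), beside 31.5% of all genes. Of the 7 genes of RNA-seq, 6 passed there in footprints with the same sign. With all libraries the 7 also shared the sign, but 3 passed, and the agreement over all genes was not computed. These comparisons share the LPS libraries with those above.

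HERPUD1 had the largest rise. In RNA-seq it was at 362, 392, 394 and 354 CPM in LPS+Dex, against 139, 139, 139 and 136 CPM in LPS and 171, 166, 169 and 165 CPM in vehicle. Its footprints were at 263, 304, 298, 437 and 288 CPM in LPS+Dex, against 110.4, 106, 104, 137 and 106 CPM in LPS and 137, 125, 134, 133 and 124 CPM in vehicle. Every LPS+Dex library lay above every library of the other treatments in both assays. The rise over LPS was 1.44 ± 0.06, adjusted p = 5.50e-10 in RNA-seq and 1.5 ± 0.12, adjusted p = 6.87e-07 in footprints, and over vehicle it was 1.16 ± 0.06, adjusted p = 5.04e-10 and 1.28 ± 0.12, adjusted p = 7.98e-07 in the same order. Without the libraries numbered 4 the footprint rises were 1.44 ± 0.06, adjusted p = 1.04e-14 over LPS and 1.15 ± 0.06, adjusted p = 1.21e-13 over vehicle. The other members with an ERSE-II did not pass in RNA-seq with dexamethasone, SDF2L1 at 0.39 ± 0.16, adjusted p = 0.0747 and HYOU1 at -0.27 ± 0.11, adjusted p = 0.0904. HERPUD1 lies at chr16:56932142-56944864.

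EDEM1 and ERO1B, which LPS had raised, fell when dexamethasone was present. EDEM1 was at 33.9, 27.1, 35.3 and 26.1 CPM in RNA-seq and 38.9, 35.97, 38.95, 83.2 and 40.7 CPM in footprints in LPS+Dex, below every LPS library in each assay. The fall against LPS was -1.85 ± 0.22, adjusted p = 1.64e-05 in RNA-seq and -1.23 ± 0.23, adjusted p = 0.00121 in footprints (without the libraries numbered 4 -1.37 ± 0.07, adjusted p = 3.19e-13). Against vehicle EDEM1 gave -0.45 ± 0.22, adjusted p = 0.0884 and 0.21 ± 0.22, adjusted p = 0.471, neither past the test. ERO1B was at 43.4, 44.03, 44.1 and 40.9 CPM in RNA-seq and 30.6, 30.01, 26.2, 53.7 and 29.7 CPM in footprints in LPS+Dex. It fell against LPS by 0.96 ± 0.07, adjusted p = 1.50e-07 in RNA-seq and by 0.77 ± 0.20, adjusted p = 0.0141 in footprints, where replicate 4 of LPS+Dex reached into the range of LPS (without the libraries numbered 4 -0.81 ± 0.08, adjusted p = 1.80e-08). Against vehicle ERO1B gave 0.11 ± 0.07, adjusted p = 0.178 in RNA-seq, and in footprints it stayed higher (0.56 ± 0.20, adjusted p = 0.0315; without the libraries numbered 4 0.45 ± 0.08, adjusted p = 5.71e-05). EDEM1 lies at chr3:5187707-5219958 and ERO1B at chr1:236215101-236281958.

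The other RNA-seq changes with dexamethasone were smaller. SSR3 rose to 75.1, 72.9, 75.1 and 70.9 CPM in LPS+Dex, against 53.9, 50.7, 58.9 and 59.5 CPM in LPS, a change of 0.40 ± 0.08, adjusted p = 0.00124. MANF rose to 190.2, 209, 190.2 and 205 CPM in LPS+Dex, against 162, 176, 132 and 138 CPM in LPS (0.39 ± 0.13, adjusted p = 0.0399), and neither gene's groups overlapped. P4HB fell (-0.15 ± 0.05, adjusted p = 0.0447), as did SEC24D (-0.41 ± 0.14, adjusted p = 0.0362), whose groups overlapped. The calls of MANF, P4HB and SEC24D were each lost when single libraries were left out: the highest adjusted p was 0.12 for MANF, 0.128 for P4HB and 0.111 for SEC24D. The SSR3 call was kept whichever library was left out (highest adjusted p 0.00628). Without the 3 RNA-seq libraries numbered 4 only 4 members passed, beside 21.2% of all genes. These were HERPUD1, EDEM1, ERO1B and SSR3, the last at 0.45 ± 0.09, adjusted p = 0.0061. SEC61A1 did not overlap between LPS+Dex and LPS either, yet missed the threshold (-0.34 ± 0.13, adjusted p = 0.0653). In footprints SSR3 and MANF passed with the block (0.41 ± 0.10, adjusted p = 0.00384 and 0.28 ± 0.09, adjusted p = 0.0217), with SEC61B lower (-0.19 ± 0.06, adjusted p = 0.0215), and all 3 also passed without the libraries numbered 4 (0.38 ± 0.07, adjusted p = 2.00e-04, 0.23 ± 0.06, adjusted p = 0.0074 and -0.22 ± 0.06, adjusted p = 0.00709).

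XBP1, ATF6 and ERN1 did not pass against LPS in either assay. XBP1 was at 386, 376, 366 and 398 CPM in RNA-seq and 336, 359, 378, 446 and 326 CPM in footprints of LPS+Dex, and its log2 difference from LPS was -0.05 ± 0.07, adjusted p = 0.603 in RNA-seq, with a 95% interval of -0.20 to 0.09. For ATF6 the RNA-seq difference was -0.20 ± 0.13, adjusted p = 0.271 with an interval of -0.45 to 0.06. For ERN1 it was -0.17 ± 0.23, adjusted p = 0.618 with an interval of -0.62 to 0.29. ATF6 was at 139, 125, 146 and 125 CPM and ERN1 at 8.86, 7.55, 9.54 and 6.81 CPM in RNA-seq of LPS+Dex. Against vehicle, LPS+Dex libraries still showed more XBP1 (1.17 ± 0.07, adjusted p = 1.09e-08) and ATF6 (0.59 ± 0.13, adjusted p = 0.00134) and less ERN1 (-1.99 ± 0.23, adjusted p = 4.51e-06) in RNA-seq. The footprints gave 1.19 ± 0.11, adjusted p = 3.59e-07 for XBP1, 0.77 ± 0.16, adjusted p = 8.40e-04 for ATF6 and -1.47 ± 0.53, adjusted p = 0.0328 for ERN1. The ERN1 footprint call was lost when each of 5 single libraries was left out in turn, with log2 fold changes from -2.18 to -1.04, the weakest without replicate 4 of vehicle. Without the 3 libraries numbered 4 it was -1.75 ± 0.08, adjusted p = 4.69e-15, with XBP1 at 1.14 ± 0.07, adjusted p = 8.40e-13 and ATF6 at 0.72 ± 0.06, adjusted p = 1.87e-10.

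Over all members, LPS+Dex against vehicle gave 16 of 34 past the test in RNA-seq, 8 higher and 8 lower, beside 60.2% of all genes (29.2% higher, 31% lower). Beside the genes above, DERL1, DNAJB9, P4HB, SEC61B and SSR3 were higher, and CALR, DERL3, HSP90B1, HSPA5, PDIA4, SEC24D and SYVN1 lower. HSPA5 was at 1152, 1104, 1182 and 1047 CPM in LPS+Dex, overlapping vehicle, and fell by 0.20 ± 0.07, adjusted p = 0.0212, a call that 4 single libraries could remove (highest adjusted p 0.0707). In footprints 6 of 34 passed, 5 higher (ATF6, ERO1B, HERPUD1, SEC23B and XBP1) and ERN1 lower, beside 46.4% of all genes (24.4% higher, 22% lower). With the replicate block 16 passed (14 higher, 2 lower; 61.1% of all genes), and without the libraries numbered 4 there were 21 (13 higher, 8 lower; 62.4%).

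**Figure D4:**
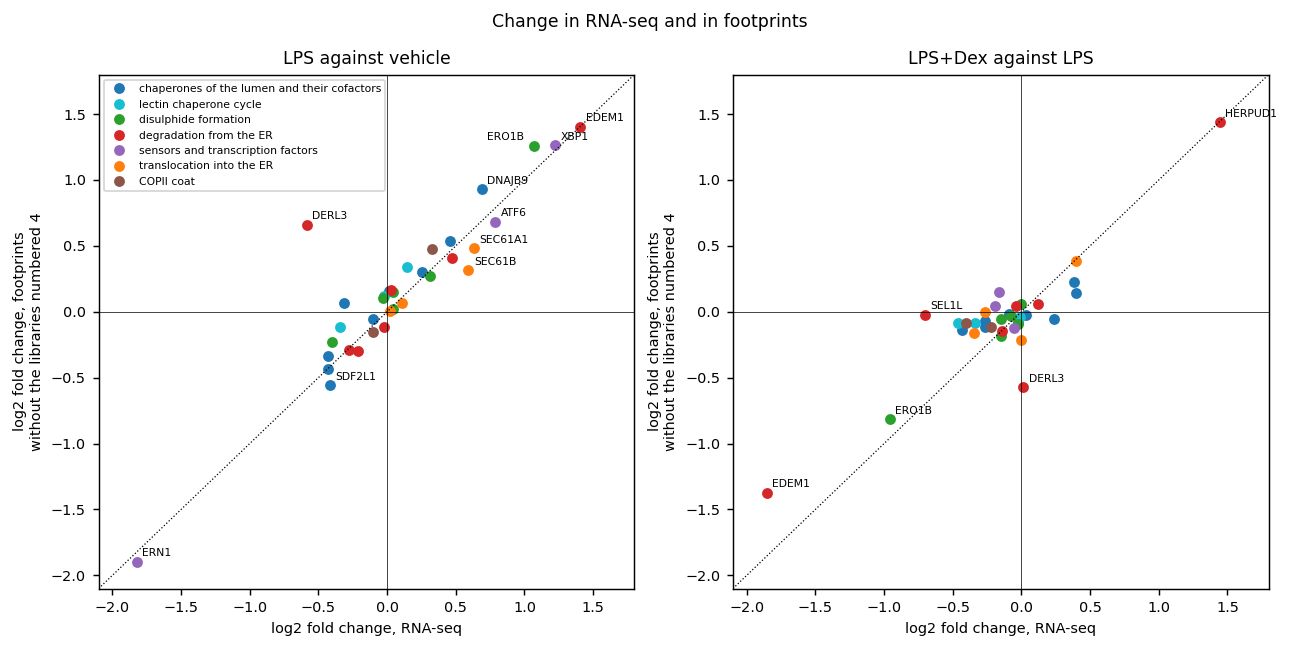
Log2 fold change in RNA-seq (horizontal axis, all libraries) against that in footprints without the libraries numbered 4 (vertical axis) for the 34 members, coloured by role, for LPS against vehicle (left) and LPS+Dex against LPS (right); the dotted line marks equal change. Most points lie along the line, and DERL3 stands above it with LPS and below it when dexamethasone was added.

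Footprints per mRNA, the translational efficiency (TE), did not pass for any member with all 27 libraries. The edgeR interaction test called 0 of 34 members with LPS, 0 with LPS+Dex against LPS and 0 with LPS+Dex against vehicle, beside 1.78%, 0.0502% and 1.93% of all genes. At an unadjusted p under 0.05 there were 1, 1 and 3 members, and DESeq2 also called 0 in each comparison. In simulated counts for LPS against vehicle 55 of 99 genes changed 2-fold in TE were recovered, so such changes could be missed. The member medians were 0.17, 0.14 and 0.35 on the log2 scale, beside 0.01, 0.04 and 0.04 over all genes, with replicate 4 of the footprints included. Without the footprint libraries numbered 4 these medians were 0.07, 0.06 and 0.18. For LPS+Dex against LPS 0 members passed there (0.426% of all genes) or with the replicate block (0.553%). The TE of HSP90B1, without those libraries, was higher with LPS (0.40 ± 0.08, adjusted p = 0.00377), as were those of CALR (0.25 ± 0.07, adjusted p = 0.0332) and DERL3 (1.27 ± 0.34, adjusted p = 0.0259), beside 5.84% of all genes. HSP90B1 and DERL3 fell in RNA-seq with LPS while their footprint change had the other sign and did not pass. The footprints of HSP90B1 were at 1155, 1259.99, 1326, 3261 and 1299 CPM with LPS, against 1131, 1246, 1161, 2323 and 1248 CPM in vehicle. DERL3 footprints were few, at 1.82, 1.49, 2.41, 2.17 and 1.57 CPM with LPS, against 1.45, 1.05, 1.43, 1.95 and 0.697 CPM in vehicle, with overlap. With the replicate block, fitted here to both assays, 2 members passed with LPS (HSP90B1 and DERL3), beside 7.35% of all genes. For LPS+Dex against vehicle 12 passed, 11 higher and SEC61B lower, beside 12.2% of all genes. The largest in size was SEL1L at 0.89 ± 0.21, adjusted p = 0.0101. These calls rest in part on an RNA-seq pairing that is not settled. The block also takes the same shift in every treatment, whereas the excess of footprint replicate 4 differed between them. The member median of that excess was 1.36 in LPS+Dex and 0.75 in vehicle, and for SEL1L it was 1.53 and 0.86. Without the libraries numbered 4 there were 3 for LPS+Dex against vehicle (8.54%), HSP90B1, PDIA4 and ERO1B.

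Set beside the promoter elements, the 8 members with an ERSE showed 2 higher in RNA-seq with LPS (XBP1 and ERO1B), 3 lower (CALR, CRELD2 and HSP90B1) and 3 not past the test, with a median of -0.07. The 18 members with a window and none of the 3 elements showed 7 higher and 4 lower, with a median of 0.08. Of all genes, 62.2% were called with LPS, 28.6% higher and 33.6% lower, so both sets lay near that share. With dexamethasone the same 2 sets of members gave 0 higher and 1 lower, and 1 higher and 2 lower, beside 30.9% of all genes. Members with the same letters thus lay on both sides of 0 with LPS, and a match is a description of the sequence only.

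The wider ER system was described over 127 further genes compiled for the same roles, of which 121 were tested in RNA-seq and 119 in footprints. With LPS 46 rose and 24 fell in RNA-seq (median 0.14), beside the 28.6% higher and 33.6% lower of all genes. In footprints 19 rose and 12 fell with all libraries (25.4% and 27.2% of all genes), 61 and 21 with the replicate block (67.1% of all genes called) and 57 and 24 without the libraries numbered 4 (67.5%). By role, other degradation genes had 12 of 26 higher and 4 lower, led by NPLOC4 (a cofactor of the p97 extraction ATPase; 1.07 ± 0.13, adjusted p = 5.30e-06) and JKAMP (-0.61 ± 0.07, adjusted p = 4.49e-06). Translocation genes had 10 of 20 higher and 3 lower, led by SRPRB (a subunit of the signal recognition particle receptor; 0.59 ± 0.06, adjusted p = 2.24e-06) and TRAM2 (-0.93 ± 0.21, adjusted p = 0.00137). Disulphide genes had 9 of 15 higher and 3 lower, led by TMX4 (0.75 ± 0.09, adjusted p = 1.02e-05) and VKORC1 (vitamin K epoxide reductase; -1.36 ± 0.25, adjusted p = 2.60e-04). Chaperones had 2 of 18 higher and 8 lower, with HSPA13 at 0.64 ± 0.22, adjusted p = 0.0225 and CNPY4 at -1.42 ± 0.15, adjusted p = 1.54e-06. Sensors and transcription factors had 6 of 15 higher and 6 lower, led by PPP1R15B (CReP, which directs dephosphorylation of eIF2α; 1.52 ± 0.18, adjusted p = 4.33e-06) and CREB3L4 (-1.36 ± 0.12, adjusted p = 3.48e-07). COPII genes had 4 of 10 higher and 0 lower, led by SAR1A (the GTPase that starts the coat; 1.21 ± 0.07, adjusted p = 3.27e-09). Lectin genes had 2 of 6 higher, led by CLGN (0.57 ± 0.17, adjusted p = 0.0107), and glycan transfer genes 1 of 11, RPN2 (0.30 ± 0.05, adjusted p = 1.65e-04).

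With LPS+Dex against LPS, 14 of these 121 genes rose and 15 fell in RNA-seq (median 0.00), beside 30.9% of all genes called. In footprints 2 rose and 3 fell with all libraries (17.1% of all genes), 12 and 9 with the block (30.9%) and 12 and 14 without the libraries numbered 4 (31.5%). PPP1R15B and NPLOC4, highest with LPS alone, fell (-1.03 ± 0.17, adjusted p = 3.82e-04 and -0.60 ± 0.13, adjusted p = 0.00227), and TRAM2, lowered by LPS, rose (0.85 ± 0.21, adjusted p = 0.00634 in RNA-seq and 1.84 ± 0.18, adjusted p = 2.48e-06 in footprints). PPIC, an ER cyclophilin, rose most among chaperones (0.69 ± 0.12, adjusted p = 4.51e-04), where 3 of 18 rose and 0 fell. SELENOS, a selenoprotein of the degradation complex, rose most among degradation genes (0.52 ± 0.10, adjusted p = 7.82e-04), where 3 of 26 rose and 5 fell. The leading genes of the other roles were QSOX1 (0.39 ± 0.06, adjusted p = 1.72e-04) and TMX1 (-0.39 ± 0.13, adjusted p = 0.0306) for disulphides, CLGN (0.49 ± 0.17, adjusted p = 0.0393) for lectins and CREB3L4 (0.36 ± 0.13, adjusted p = 0.0419) for sensors. SRPRA (-0.32 ± 0.08, adjusted p = 0.00715) led the falls of translocation and SEC24C (-0.22 ± 0.06, adjusted p = 0.0173) those of the coat, and RPN1 (0.20 ± 0.07, adjusted p = 0.0334) and STT3A (-0.15 ± 0.05, adjusted p = 0.0497) were the called glycan transfer genes.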

How the data were processed

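Raw counts per Ensembl gene were deposited by the authors in 2 tables of 20453 genes, 1 for ribosome footprints (15 libraries) and 1 for RNA-seq (12 libraries), with no column left unused (0). The submitters' processing notes name Bowtie2 2.4.5, STAR 2.7.10a, DESeq2 1.26.0 and featureCounts 2.0.1 and the build GRCh38/hg38. Which step each tool did, its annotation, the feature counted, strandedness and the treatment of multi-matching reads were, in each case, not given in the sources used here. Genes were matched by symbol and kept by filterByExpr (minimum count 10, minimum total 15). The deposited counts were scaled by TMM and tested 2-sided with edgeR 4.0.16 (quasi-likelihood, R 4.3.3), 1 fit per assay over 3 treatments, and TE as footprint change minus RNA change in 1 fit over 27 libraries. Each adjusted p is Benjamini-Hochberg over all genes tested, and genes were called at 0.05. Levels are CPM computed here on TMM-scaled library sizes. Standard errors of log2 fold changes were computed here as the absolute change over the square root of the edgeR F statistic. The 95% intervals span 1.96 such errors on each side, a normal multiplier that can leave them somewhat narrow. The members, the 127 other ER genes and the markers were chosen with earlier results of these data known. All 34 members are accounted for, and of the other ER genes the called gene with the largest rise and fall per role is named. Footprint libraries that share a number, with treatment means subtracted, correlated above 0.1 in 15 of 15 pairs (median r = 0.41), against 35 of 60 pairs of different number. The replicate number was therefore also fitted as a block in footprints. Such a block takes the same shift in every treatment, while the excess of replicate 4 was smaller in vehicle. The block in TE covered the libraries of both assays, though whether the RNA-seq numbers mark pairs is not settled. Without the libraries numbered 4 only 4 of 12 footprint pairs of the same number correlated above 0.1 (median r = 0.06). No 2 libraries were identical (0 pairs). In simulated RNA-seq counts for LPS against vehicle, 86 of 99 genes changed 2-fold were recovered among 13220 genes. Recovery was 74 of 100 among 12142 in simulated footprints and 55 of 99 among 11866 in simulated TE. False calls numbered 9, 12 and 12 in the same order. The simulation gave replicate 4 no shared excess, so its footprint and TE figures may not hold for these members.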

Additional observations from a re-analysis of the deposited data

Results flagged for a closer look

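There were 204 sets of replicate values (34 members, 2 assays, 3 treatments). In 84 of them a library's gap to the nearest other was a large part of the whole range by Dixon's criterion. The nominal rate of the criterion is about 1 of 20, but the sets share libraries. The share flagged over all genes was not computed. Footprint replicate 4 was the flagged library, on the high side, for 29 members in LPS+Dex, 26 in LPS and 25 in vehicle. Its values in CPM follow by role. For lumenal chaperones and cofactors, replicate 4 stood high in LPS+Dex at 6812 CPM for HSPA5, 3499 for HSP90B1, 4200.2 for HYOU1, 422 for DNAJB9, 311 for DNAJB11, 474 for DNAJC3, 251 for SDF2L1, 576 for MANF and 119.6 for CRELD2. It did so in LPS at 5762 CPM for HSPA5, 3261 for HSP90B1, 3592 for HYOU1, 455 for DNAJB9, 298 for DNAJB11, 472 for DNAJC3, 156 for SDF2L1, 412 for MANF and 103 for CRELD2. The vehicle library did so at 3955 CPM for HSPA5, 2323 for HSP90B1, 2452 for HYOU1, 163 for DNAJB9, 204 for DNAJB11, 259 for DNAJC3 and 429 for MANF. For the lectin cycle, replicate 4 stood high in LPS+Dex at 5468 CPM for CALR, 5011 for CANX and 725 for UGGT1. It did so in LPS at 4691 CPM for CALR, 4951 for CANX and 699.6 for UGGT1. The vehicle library did so at 3871 CPM for CALR, 2946 for CANX and 482 for UGGT1. For disulphide enzymes, replicate 4 stood high in LPS+Dex at 1237 CPM for PDIA3, 1419 for PDIA4, 2649 for PDIA6, 5934 for P4HB, 73.6 for ERO1A and 53.7 for ERO1B. It did so in LPS at 1152 CPM for PDIA3, 1095 for PDIA4, 2442 for PDIA6, 5063 for P4HB and 72.4 for ERO1A. The vehicle library did so at 754 CPM for PDIA3, 993 for PDIA4, 1707 for PDIA6, 3247 for P4HB and 29.4 for ERO1B. For degradation factors, replicate 4 stood high in LPS+Dex at 437 CPM for HERPUD1, 83.2 for EDEM1, 634 for SEL1L, 654 for SYVN1, 592 for DERL1 and 38.4 for DERL2. It did so in LPS at 137 CPM for HERPUD1, 155 for EDEM1, 544 for SEL1L, 417 for SYVN1 and 549 for DERL1. The vehicle library did so at 54.1 CPM for EDEM1, 367 for SEL1L, 461 for SYVN1, 331 for DERL1 and 24.8 for DERL2. For sensors and XBP1, replicate 4 stood high in LPS+Dex at 111 CPM for ERN1 and 407 for ATF6. It did so in LPS at 87.4 CPM for ERN1. The vehicle library did so at 245 CPM for ERN1 and 219 for ATF6. For translocation factors, replicate 4 stood high in LPS+Dex at 2562 CPM for SEC61A1, 452 for SSR1 and 548 for SSR3. It did so in LPS at 2064 CPM for SEC61A1, 434 for SSR1 and 384 for SSR3. The vehicle library did so at 1249 CPM for SEC61A1, 316 for SSR1 and 259 for SSR3. The other 4 flags were low values. SEC61B footprints were at 102 CPM in replicate 4 of vehicle. RNA-seq of LPS held PDIA4 at 327 CPM and ERO1A at 23.4 CPM in replicate 2, and HERPUD1 at 136 CPM in replicate 4. No cause of these values was tested.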

How the results depend on the processing

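With the replicate block, 13 members passed in RNA-seq for LPS+Dex against LPS (7 without it; 36.5% of all genes with it), 25, 6 and 16 in footprints and 2, 0 and 12 in TE for LPS against vehicle, LPS+Dex against LPS and LPS+Dex against vehicle. RNA-seq libraries of the same number correlated above 0.1 in 7 of 12 pairs (median r = 0.36), against 13 of 36 pairs of different number (-0.06), so not every pair did and the RNA-seq changes of the report carry no block. Without those numbered 4, 7 of 9 did (0.41), against 6 of 18 (-0.29), and whether the RNA-seq numbers mark pairs is not settled here. With all RNA-seq libraries, pairs of different number ranged from -0.78 (vehicle 3 with LPS 2) to 0.65 (vehicle 1 with LPS 2). Pairs of the same number ranged from -0.45 to 0.74. The RNA-seq libraries thus also varied together across numbers, and how this bears on the members was not tested. Without the footprint libraries numbered 4, the counts were 25, 8 and 21 in footprints and 3, 0 and 3 in TE. In that setting CALR turned to -0.11 for LPS against vehicle and SEC61A1 to -0.16 for LPS+Dex against LPS in footprints. For LPS+Dex against vehicle MANF turned to -0.21, CALR to -0.16, PDIA4 to -0.17 and SYVN1 to -0.25. These 6 were not past the test with all libraries, and the cause was not tested. For LPS+Dex against LPS in RNA-seq, fitting only the compared treatments gave 12 members, beside 38.2% of all genes. Leaving out the RNA libraries numbered 4 gave 4, beside 21.2%. Leaving out 1 library at a time gave 19 to 22, 4 to 12 and 15 to 19 members in RNA-seq for the 3 comparisons in the same order, 6 to 10, 3 to 3 and 4 to 7 in footprints, and 0 to 0 in TE. In RNA-seq those fits called 57.5 to 62%, 24.6 to 34% and 54.5 to 61% of all genes. The footprint shares in the fit of all libraries were 52.6, 17.1 and 46.4%, and those with 1 library left out are not given here. The 4 in RNA-seq came without replicate 1, 3 or 4 of LPS or replicate 2 or 4 of LPS+Dex. The 12 came without replicate 2 of LPS, and the 10 in footprints without replicate 4 of LPS+Dex. Single libraries also removed the RNA-seq call of SDF2L1 with LPS (highest adjusted p 0.127) and the footprint calls of ERO1B (0.0863) and SEC23B (0.107) for LPS+Dex against vehicle. DESeq2, its size factors and no filter on low counts kept all 9 counts within 1.5 times, but DESeq2 gave no adjusted p for ERN1 footprints, so the 1 lower call for LPS and for LPS+Dex against vehicle is missing from its counts. The spread that replicate 4 adds limits what footprints can show here, and DERL3, under 5 CPM in footprints, is limited by depth.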
